A study of Rattus norvegicus with 6 samples.

Results

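The complement genes C1qa, C1qb, C1qc, C1s, C2, C3, C4a, C7 and Cfb were followed over the cells of rat lungs. The 9 members were chosen by name and looked up by symbol, all 9 were found among the 16383 genes with values, and all cells of the 6 samples were used. BLM-treated rats received bleomycin at 5 mg/kg once through a tracheal catheter, control rats received the same volume of saline the same way, and lungs of both groups, 3 rats each, were taken on day 28. Neither a strain, an age nor a genetic change is given in the labels. Small pieces of each lung were digested, single cells were captured with barcoded beads on the BD Rhapsody system, and transcripts were counted as unique molecular identifiers (UMIs), which count captured molecules rather than PCR copies.

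Complement is a cascade of plasma and tissue proteins that marks microbes, dying cells and immune complexes for removal. In the classical pathway C1q, built from the chains of C1qa, C1qb and C1qc, binds a target and activates the proteases C1r and C1s, which cleave C4 and C2 to make an enzyme that cleaves C3. The alternative pathway cleaves C3 with an enzyme built on factor B (Cfb), and the terminal proteins, C7 among them, assemble into a pore in the target membrane. The liver makes most complement of the plasma, while C1q comes mainly from macrophages and several components are also made locally in tissues such as the lung.

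The 25547 cells, 15009 from BLM-treated and 10538 from control rats, held between 3860028 and 16598959 UMIs per rat, with medians from 1066 to 1840 UMIs per cell. Cells were clustered without the 47 measured genes of a complement list, so that the members did not draw the clusters, and 25047 cells were placed in 21 classes by markers. Class names below stand for clusters that resemble a cell type by those markers ("alveolar macrophage-like" and so on). Of the cell barcodes, 314 occurred in more than 1 library. Fibroblasts were scarce in control rats, with 162, 709 and 194 cells in BLM-treated replicates 1, 2 and 3 and 3, 15 and 29 in control replicates 1, 2 and 3, and control replicate 1 was therefore left out of fibroblast levels. Type 2 alveolar epithelial (AT2) cells numbered 7, 55 and 49 in BLM-treated rats and 235, 214 and 281 in control rats, and BLM-treated replicate 1 was left out of AT2 levels. Levels are in CPM, the UMIs of a gene per 1000000 UMIs summed over a rat's cells of a class, and they are given below for replicates 1, 2 and 3 in that order.

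Promoters of 4 of the 9 members, C1qa, C1qb, C3 and C4a, were matched in the RefSeq table of build GRCr8, each reaching from 250 bases before to 50 bases after the start of the gene. The pair of C1q promoters is shown because their genes have like levels over the classes, and that of C3 because its level differed most between groups in mesothelial cells. Capitals mark matches to a PU.1 motif (GAGGAA or its reverse complement, found in 27.6% of 33469 promoters) and to a C/EBP motif (TTGCNNAA on either strand, found in 10.6%).
C1qa, chr5:154419884-154420183, minus strand: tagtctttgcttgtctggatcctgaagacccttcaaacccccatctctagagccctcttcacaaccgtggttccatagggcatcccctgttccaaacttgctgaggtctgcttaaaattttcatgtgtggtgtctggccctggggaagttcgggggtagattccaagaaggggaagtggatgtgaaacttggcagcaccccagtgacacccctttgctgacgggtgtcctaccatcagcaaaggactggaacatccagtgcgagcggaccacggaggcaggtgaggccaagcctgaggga
C1qb, chr5:154407778-154408077, minus strand: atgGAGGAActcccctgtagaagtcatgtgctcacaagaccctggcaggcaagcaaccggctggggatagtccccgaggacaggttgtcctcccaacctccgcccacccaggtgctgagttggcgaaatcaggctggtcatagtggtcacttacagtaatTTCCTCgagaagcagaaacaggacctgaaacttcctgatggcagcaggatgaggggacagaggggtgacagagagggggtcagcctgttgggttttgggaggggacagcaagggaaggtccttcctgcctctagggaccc
C3, chr9:2201290-2201589, minus strand: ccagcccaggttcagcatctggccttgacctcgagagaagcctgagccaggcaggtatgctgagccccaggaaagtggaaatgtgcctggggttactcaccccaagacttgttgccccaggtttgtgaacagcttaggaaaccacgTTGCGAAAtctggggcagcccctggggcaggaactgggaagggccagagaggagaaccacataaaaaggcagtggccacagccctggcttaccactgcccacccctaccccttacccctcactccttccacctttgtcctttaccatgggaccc
The C1qb promoter held the PU.1 letters at -247 on its own strand and at -90 on the other strand, and the C3 promoter held the C/EBP letters at -104. Neither motif was found in the C1qa and C4a windows, nor did any of the 4 windows hold an interferon-stimulated response element (in 3.92% of promoters), an NF-kB motif (in 0.111%) or a TATA box (TATAAA, in 14.2%). A match describes letters in these windows, not a binding site. C1qb, C1qc and C1qa are direct neighbours on chromosome 5, C2 and Cfb are neighbours on chromosome 20 with C4a a few genes on, and C1s lies beside C1r on chromosome 4.

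Summed over all cells, complement transcripts were more abundant in BLM-treated than in control lungs for 6 of the 9 members, and for none less abundant. Over all 13346 genes tested, 17.4% were called in either direction and 11.1% were higher (edgeR quasi-likelihood test with Benjamini-Hochberg adjustment, threshold 0.05). The median log2 difference was 1.53 for the members and -0.01 for all genes. C7 was at 49.1, 169 and 47.4 CPM in BLM-treated rats, against 1.19, 4.40 and 1.23 CPM in control rats, a log2 difference of 5.53 ± 0.73 (SE, adjusted p = 0.0031). C1s was at 199, 374 and 499 CPM in BLM-treated rats, against 33.7, 59.3 and 18.7 CPM in control rats, and differed by 3.27 ± 0.44 (adjusted p = 0.0034). For both genes every BLM-treated rat lay above every control rat. C1qa, C1qb and C1qc were higher by 2.01 ± 0.27, 1.53 ± 0.28 and 1.33 ± 0.25 (adjusted p = 0.0034, 0.011 and 0.011).

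C4a was at 1014, 1254 and 3288 CPM in BLM-treated rats, against 593, 361 and 176 CPM in control rats, higher by 2.24 ± 0.54 (adjusted p = 0.026). This call was lost without control replicate 2 (adjusted p = 0.072) or control replicate 3 (adjusted p = 0.071). C3, Cfb and C2 did not pass, with differences of 0.69 ± 0.39, 0.57 ± 0.33 and 0.08 ± 0.25. For C3 the groups overlapped, at 78.0, 123 and 266 CPM in BLM-treated rats and 81.3, 125 and 73.0 CPM in control rats. Sums over all cells mix the share of each class with the level in its cells, and more cells of a type cannot be told apart in them from more RNA per cell.

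**Figure D1:**
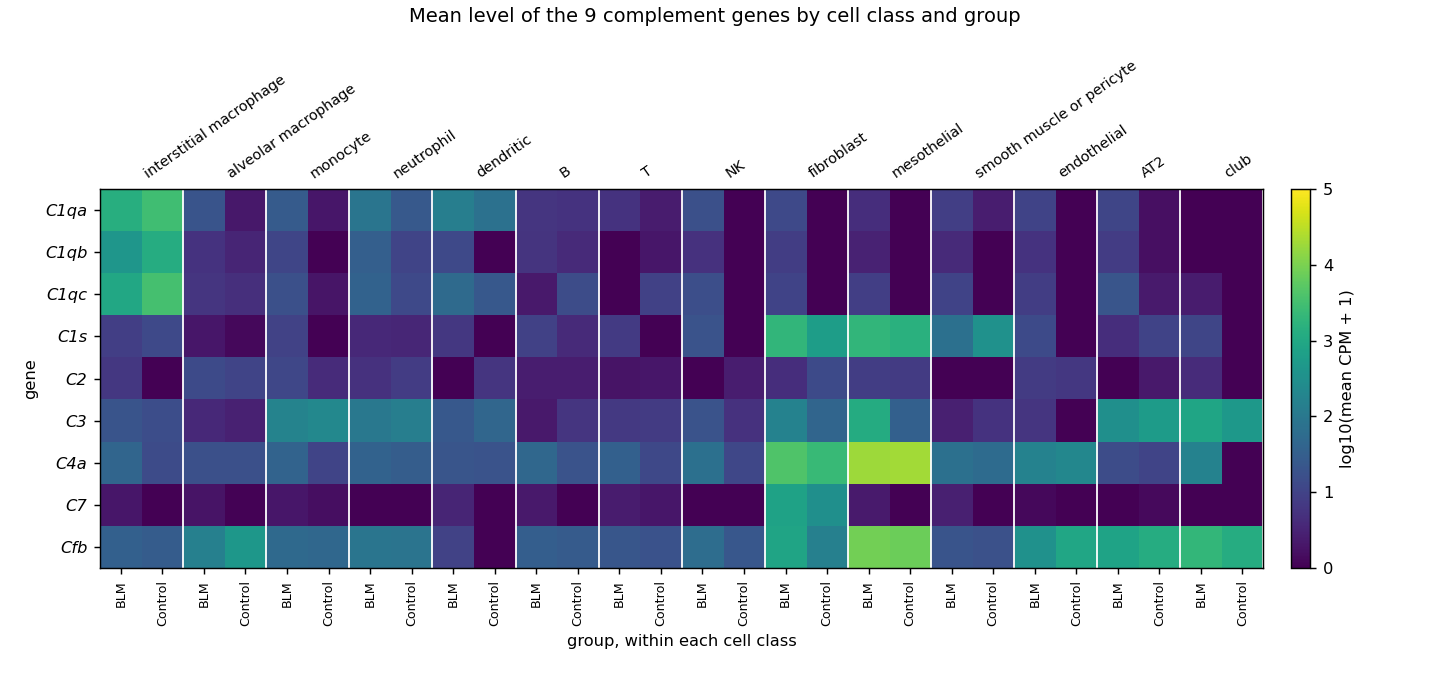
Mean level of the 9 members in 14 cell classes, BLM-treated left of control within each class (color, log10 of mean CPM + 1 over rats). C1q chains stand out in interstitial macrophages, C4a and Cfb in mesothelial cells and C7 in fibroblasts.

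The cascade was divided over the classes. Interstitial macrophages held 86.4%, 85.0% and 86.5% of the C1qa, C1qb and C1qc UMIs in the mean of BLM-treated rats, and 88.4%, 88.6% and 88.1% in that of control rats. Fibroblasts held nearly all C7, at 98.8% in the mean of BLM-treated rats and 85.9% in that of control rats. The groups had 3610 and 41 C7 UMIs, those of control rats being 9, 17 and 15. C4a lay in mesothelial cells and fibroblasts, with 64.2% and 33.0% in BLM-treated rats against 88.9% and 4.50% in control rats.

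C1s, C3 and Cfb were divided otherwise in BLM-treated lungs than in control lungs. Fibroblasts held 60.2% ± 26.1 of C1s UMIs in BLM-treated rats and 9.23% ± 5.9 in control rats (SD, n = 3 each), and mesothelial cells 36.2% and 67.2%. Epithelium held 22.0% ± 16.0 of C3 UMIs in BLM-treated rats and 73.9% ± 3.9 in control rats, while mesothelial cells held 50.2% ± 28.5 and 0.69%. Alveolar macrophages held 6.44% ± 4.0 of Cfb UMIs in BLM-treated rats and 39.3% ± 4.2 in control rats, and mesothelial cells 62.3% ± 16.0 and 23.1% ± 9.9. In these shares other than that of C1s in mesothelial cells, every BLM-treated rat lay on one side of every control rat. With 3 rats against 3 the exact permutation test cannot go below p = 0.10, and no share passed (smallest adjusted p = 0.30 over 81 shares, two-sided).

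BLM-treated replicate 3 weighed on these means. It held 426 mesothelial cells, against 59 and 187 in BLM-treated replicates 1 and 2, and mesothelial cells gave 83.1% of its C3 UMIs, against 35.1% and 32.4% in the other BLM-treated rats. Fibroblasts gave 30.5% of C1s UMIs in that rat and 71.1% and 79.2% in BLM-treated replicates 1 and 2. A share of UMIs moves with the number of cells captured in a class, which its CPM does not.

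**Figure D2:**
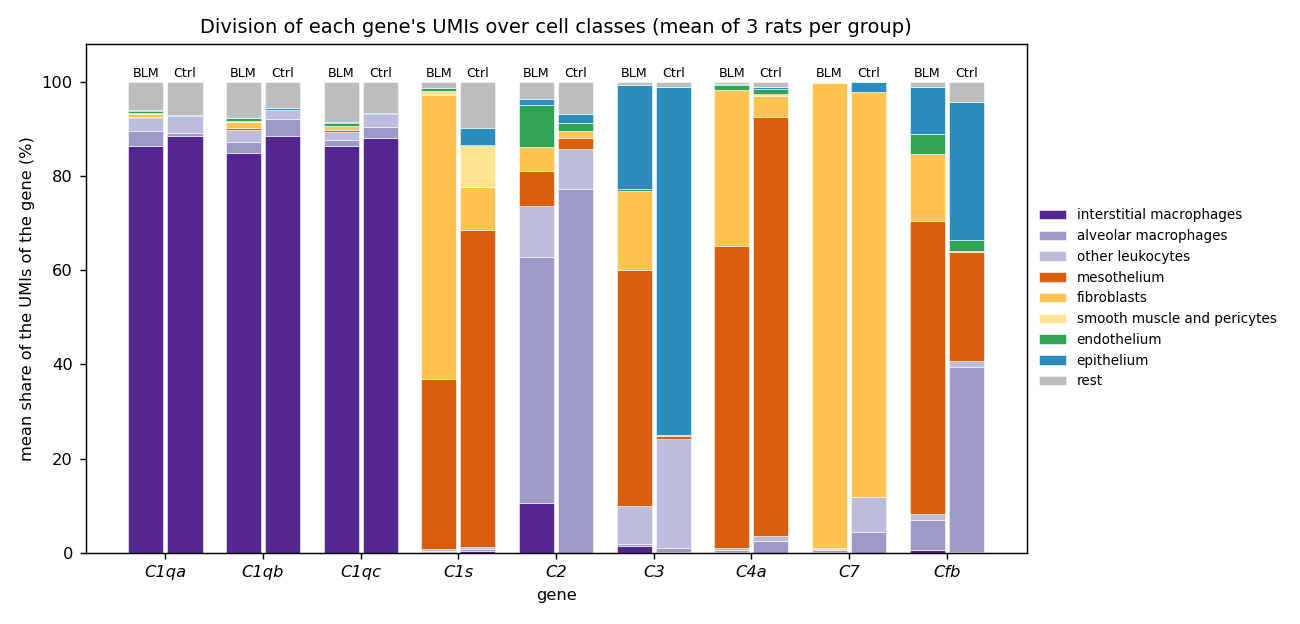
Mean share of each member's UMIs held by each group of classes (stacked to 100%, mean of 3 rats), BLM-treated left of control for each gene. For C3 the epithelial part is 22.0% in BLM-treated and 73.9% in control rats, and the mesothelial part 50.2% and 0.69%.

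C1q, the recognition protein, was carried by interstitial macrophages, where the CPM of its chains were lower in BLM-treated rats. Of 4 members tested there, 3 were lower and none higher, beside 17.1% of 5790 genes called, 8.27% as lower. C1qa was at 1322, 1153 and 1677 CPM in BLM-treated rats, against 2408, 3424 and 2807 CPM in control rats (log2 difference -0.92 ± 0.23, adjusted p = 0.0078). C1qb differed by -1.40 ± 0.26 (adjusted p = 0.00078). C1qc, at 842, 805 and 1341 CPM in BLM-treated rats against 2944, 3492 and 3404 CPM in control rats, differed by -1.59 ± 0.24 (adjusted p = 1.0e-04). The groups did not overlap for any of the chains. The C1qa call was lost without control replicate 3 (adjusted p = 0.052).

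Markers of alveolar macrophages, summed over 10 genes with none at 0, were at 2190, 2238 and 1511 CPM in interstitial macrophages of BLM-treated rats and 626, 257 and 469 CPM in those of control rats. The 12 markers of interstitial macrophages themselves, with none at 0, summed to 31510, 28650 and 23070 CPM in BLM-treated rats and 7516, 8577 and 9461 CPM in control rats. Cells under this class name thus differed between the groups in their own markers. The part of either list in the result was not tested. The makeup of the class by clusters differed between the groups as well. Its clusters led by Spp1, which encodes the matrix protein osteopontin, held 166, 596 and 113 cells in BLM-treated rats and 1, 0 and 9 in control rats. Without them, an alternative chosen after the data were seen, 1.06% of 2552 genes were called and none of the 3 chains was. C1qa was then at 3861, 4550 and 2978 CPM in BLM-treated rats and 2536, 3424 and 3380 CPM in control rats (0.30 ± 0.21, adjusted p = 0.60), and C1qb and C1qc differed by 0.05 ± 0.21 and 0.14 ± 0.20. The groups overlapped there. The clusters kept in that fit have C1qa and C1qc among their leading genes, and the part of the makeup in the C1q differences was not tested.

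Within BLM-treated lungs the C1q level varied between the clusters of these macrophages. In the cluster led by Spp1, Apoe and Ctsk, C1qa was at 643, 649 and 646 CPM. In the cluster led by Lyve1, C1qa and C1qc, which also had the scavenger receptor Cd163 among its leading genes, C1qa was at 5333, 6748 and 4511 CPM, from 11, 53 and 26 cells. The cluster led by C1qa, C1qc and RT1.Da, a major histocompatibility gene, was present in both groups, with C1qa at 3484, 3754 and 2685 CPM in BLM-treated rats and 2334, 3383 and 3275 CPM in control rats. These levels describe clusters and were not tested between them.

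After each cell was thinned to 500 UMIs, 37.7% ± 7.5 of interstitial macrophages of BLM-treated rats and 70.7% ± 0.74 of those of control rats had a C1qa UMI. Among B cells, which should lack the gene, the share was 0.25% and 0%, at median depths of 597 and 575 UMIs per cell, against 2885 and 1727 in the macrophages. A UMI of any C1q chain was found in 41.3%, 40.0% and 59.5% of thinned interstitial macrophages of BLM-treated rats and in 93.7%, 94.7% and 81.4% of those of control rats. The mix of chains, as UMIs not corrected for length, was 62.7% C1qa and 23.6% C1qc in Spp1-led clusters, and 41.1% and 43.8% in the other interstitial macrophages.

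**Figure D3:**
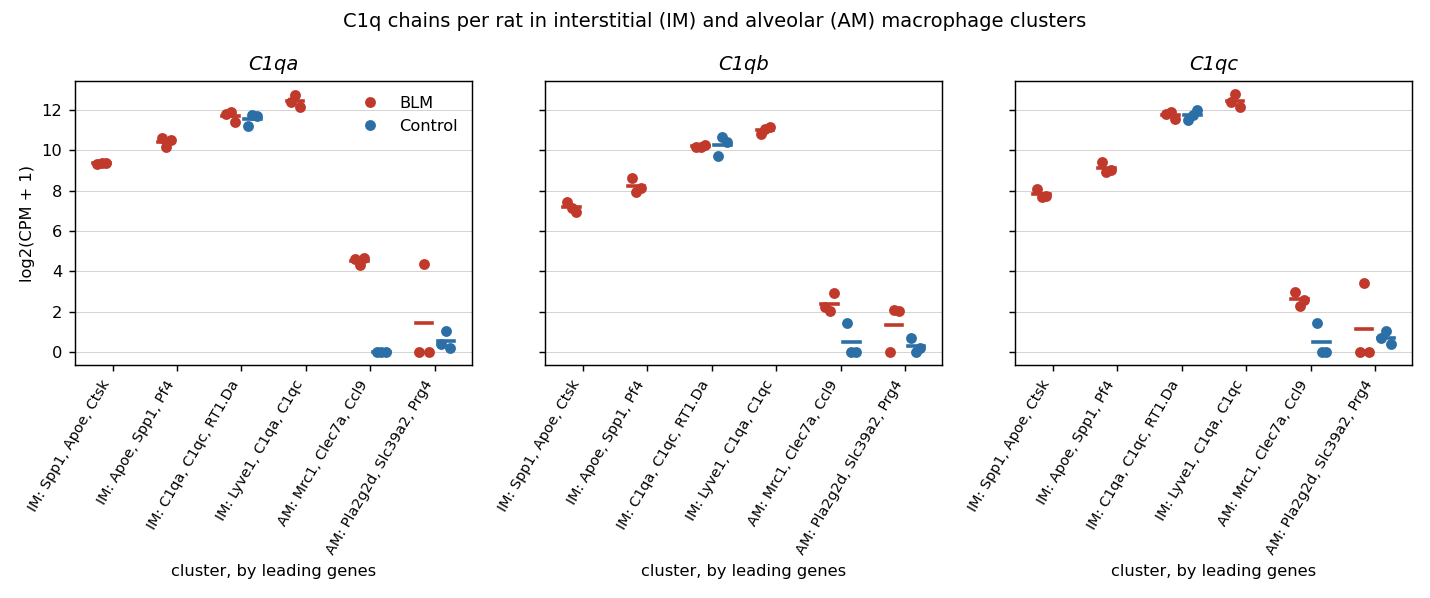
Level of C1qa, C1qb and C1qc (log2 of CPM + 1) per rat in 4 interstitial (IM) and 2 alveolar (AM) macrophage clusters, BLM-treated left of control, with bars at the mean; clusters with fewer than 10 cells in a rat have no point. C1qa in the Spp1, Apoe and Ctsk cluster (643 to 649 CPM) lies under that of the C1qa, C1qc and RT1.Da cluster (2685 to 3754 CPM) in every BLM-treated rat.

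Alveolar macrophages held little C1q, and 6 members could be tested in them, of which 1 was higher and 1 lower, beside 11.2% of 9265 genes called (6.56% higher and 4.66% lower). C1qa was at 20.6, 18.7 and 18.3 CPM in BLM-treated rats, against 0.49, 2.72 and 0.14 CPM in control rats, a log2 difference of 4.92 ± 0.53 (adjusted p = 0.00031). The UMIs came from 11 of 582, 30 of 1113 and 14 of 632 cells in BLM-treated rats and from 2 of 1259, 4 of 789 and 1 of 1729 cells in control rats. Few cells thus carried the gene in either group, although the groups were apart. B cells had C1qa at 2.69, 12.1 and 0 CPM in BLM-treated rats and 0, 0 and 13.3 CPM in control rats. Endothelial cells had it at 7.5, 8.3 and 11.1 CPM in BLM-treated rats and 0 in each control rat. There 3 UMIs over the control group, of 27, 41 and 151 cells, would be 8.88 CPM, beside a BLM-treated mean of 8.97 CPM. These zeros therefore do not show a difference. C1qb and C1qc did not pass (1.79 ± 0.89 and 1.26 ± 0.94), but did without control replicate 2 (adjusted p = 0.0097 and 0.0044). At a clustering resolution of 2, or with complement genes kept in the clustering, all 3 chains fell under the filter on low counts in this class and could not be tested. Markers of interstitial macrophages, summed over 12 genes, were at 8817, 10070 and 7890 CPM in alveolar macrophages of BLM-treated rats and 6901, 4645 and 8907 CPM in those of control rats. Interstitial macrophages themselves had the list at 31510, 28650 and 23070 CPM in BLM-treated rats and 7516, 8577 and 9461 CPM in control rats. Mrc1, of that list, is among the leading genes of each alveolar macrophage cluster, so the list is not particular to interstitial macrophages. The part of these markers in the result was not tested.

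The BLM effect on C1q differed between the macrophage classes taken whole. In a test of the class by group interaction over 10581 genes, with the rat as a block, 12.5% of genes differed between alveolar and interstitial macrophages. The BLM effect was larger in alveolar macrophages by 5.35 ± 0.71 for C1qa, 2.86 ± 0.63 for C1qb and 2.68 ± 0.80 for C1qc on the log2 scale (adjusted p = 1.2e-06, 0.0013 and 0.020). The call for C1qc was lost without BLM-treated replicate 1 or control replicate 1 or 3 (adjusted p from 0.074 to 0.23). In alveolar macrophages C1qb and C1qc rest on 53 and 66 UMIs over all rats and were not called within the class. The interaction was not fitted without the Spp1-led clusters, and without them no chain was called in interstitial macrophages.

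C1s, the protease that cleaves C4 and C2, was a gene of the stroma. It had its highest mean levels in mesothelial cells (1710 ± 389 CPM) and fibroblasts (1393 ± 736 CPM, SD over 6 and 5 rats). The exact sign-change test between them (two-sided p = 0.25) cannot go below 0.0625 with 5 rats, so it does not decide their order. In control replicates 2 and 3, mesothelial cells (1981 and 1293 CPM) lay above fibroblasts (854 and 365 CPM). In BLM-treated rats the levels of these classes were close. Fibroblasts had C1s at 1885, 1889 and 1969 CPM in BLM-treated rats, against 854 and 365 CPM in control replicates 2 and 3, a log2 difference of 1.95 ± 0.34 (adjusted p = 0.020). In fibroblasts 5 members were tested and 2 were higher, beside 1.22% of 7545 genes called (0.649% higher). The BLM-treated rats lay close together and above both control rats.

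In mesothelial cells C1s was at 1832, 1780 and 2181 CPM in BLM-treated rats and 1194, 1981 and 1293 CPM in control rats (0.37 ± 0.25, adjusted p = 0.53), and the groups overlapped. The BLM effect on C1s was larger in fibroblasts than in mesothelial cells by 1.78 ± 0.41 (adjusted p = 0.025), where 0.501% of genes differed, a call lost without any single control rat (adjusted p from 0.066 to 0.57). In smooth muscle cells and pericytes, where 9.07% of 5069 genes were called (4.85% lower), C1s was lower, at 33.8, 63.0 and 112 CPM in BLM-treated rats against 666, 173 and 159 CPM in control rats (-1.57 ± 0.42, adjusted p = 0.013). This call was lost without BLM-treated replicate 1 (adjusted p = 0.051) or control replicate 1 (adjusted p = 0.071). Most smooth muscle cells of BLM-treated rats lay in a cluster led by Tagln, Sparcl1 and Myl9. It held 211, 236 and 223 cells in BLM-treated and 6, 25 and 56 in control rats. C1s was there at 34.5, 54.8 and 82.0 CPM in BLM-treated rats and, from 1 UMI each, 19.7 and 8.70 CPM in control replicates 2 and 3. The other cluster, led by Mylk, Tagln and Myh11, held 5, 20 and 11 cells in BLM-treated and 6, 14 and 48 in control rats. C1s was there at 194 and 961 CPM in BLM-treated replicates 2 and 3 and 490 and 336 CPM in control replicates 2 and 3. C1s was thus lower in the class as a whole but not within either cluster. The part of the makeup was not tested.

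The fibroblast calls rest on few control cells and on a changed class. Both calls, C1s and Cfb, were lost without BLM-treated replicate 1 or 2 or without control replicate 2 or 3 (adjusted p from 0.067 to 0.31). Without control replicate 2 or 3 a single control rat remained, assumed to vary like the BLM-treated rats, and 0 of all genes were called, so these fits say little about the members. A cluster led by Col1a1, Col3a1 and Igfbp5, with the matrix protein gene Dpt among its leading genes, held 111, 597 and 131 cells of BLM-treated rats and 2, 3 and 2 of control rats. In the fibroblast cluster that both groups shared, led by Mgp, Col1a1 and Eln, C1s differed by 1.30 ± 0.36 (adjusted p = 0.24) and Cfb by 0.39 ± 0.85, and none of the 5 members was called, beside 0.0588% of 3404 genes. That setting was chosen after the data were seen. A further stromal cluster, led by Col3a1, Eln and Gpx3, stayed unnamed and out of the class comparisons, and both members tested in it, C1s and C4a, were higher, beside 6.8% of 1132 genes called.

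C4a, whose product becomes part of the enzyme that cleaves C3, was highest in mesothelial cells (19300 ± 4033 CPM over 6 rats), followed by fibroblasts (3498 ± 1627 CPM) and, far lower, by endothelial cells (183 ± 109 CPM). Mesothelial cells lay above fibroblasts in all 5 rats with both (exact sign-change p = 0.0625, the smallest that 5 rats allow). In mesothelial cells C4a was at 21820, 14480 and 19680 CPM in BLM-treated rats and 24980, 14950 and 19870 CPM in control rats, with a difference of -0.13 ± 0.32 (adjusted p = 0.90), so the groups overlapped throughout. Fibroblasts had 4996, 4278 and 3552 CPM in BLM-treated rats and 3918 and 748 CPM in control replicates 2 and 3 (1.19 ± 0.51, adjusted p = 0.31). C4a and C4b are near-identical copies whose reads the counting could split, so their separate values are uncertain.

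C4a was also counted in secretory club cells of the airways, at 206, 89.3 and 206 CPM in BLM-treated rats and 0 in each control rat. Control club cells were few (11, 12 and 25 cells), and 3 UMIs over the control group would be 15.9 CPM, so the BLM-treated mean was at least 10.5-fold higher (adjusted p = 0.032, 1.53% of 2350 genes called in club cells, 1.15% as higher, where 3 members were tested). The call was lost without BLM-treated replicate 1 or any single control rat (adjusted p from 0.058 to 0.12). Mesothelial markers, summed over 8 genes, were at 1339, 1401 and 1412 CPM in club cells of BLM-treated rats and 256, 361 and 347 CPM in those of control rats, with 1 marker at 0, and their part in the result was not tested. C2, the partner of C4 in that enzyme, was sparse, with 228 UMIs in BLM-treated and 148 in control rats. Its highest mean was in alveolar macrophages, at 8.10, 13.9 and 14.8 CPM in BLM-treated rats and 8.64, 11.6 and 8.69 CPM in control rats (0.37 ± 0.27, adjusted p = 0.43).

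C3, on which the pathways converge, was counted in mesothelial cells of BLM-treated rats and hardly in those of control rats. It was at 995, 1045 and 1477 CPM in BLM-treated rats, against 57.1, 0 and 42.0 CPM in control rats, a log2 difference of 4.87 ± 0.44 (adjusted p = 0.00017). Of 4 members tested in mesothelial cells this was the one called, beside 2.20% of 3688 genes (1.17% higher). Every BLM-treated rat lay above every control rat, and the call held under each alternative tried.

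A C3 UMI was found in 30 of 59, 107 of 187 and 301 of 426 mesothelial cells of BLM-treated rats, and in 3 of 52, 0 of 28 and 2 of 34 of control rats. After thinning to 500 UMIs the share was 30.8% ± 8.4 in BLM-treated and 1.04% ± 1.8 in control rats (unthinned, 59.6% ± 10.1 and 3.88% ± 3.4). B cells had 0.056% and 0.16% after thinning, at median depths of 597 and 575 UMIs, against 2890 and 2754 in mesothelial cells. C3 was thus counted in many mesothelial cells of BLM-treated rats, at a similar depth in both groups. Its UMIs were spread unevenly over them. A single cell held up to 28, 57 and 37 of the 221, 662 and 1933 UMIs in BLM-treated replicates 1, 2 and 3.

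The sum of 8 mesothelial markers was 14090, 13350 and 11030 CPM in BLM-treated and 14600, 11880 and 13570 CPM in control rats, with none at 0. Single markers moved in opposite directions without overlap, Wt1 at 827 ± 111 CPM in BLM-treated and 352 ± 51.2 CPM in control rats, and Gpm6a at 3196 ± 862 CPM in BLM-treated and 5423 ± 516 CPM in control rats (SD, n = 3 each). Upk3b and Rspo1 were also lower in every BLM-treated rat than in every control rat. Markers of AT2 cells, which carry C3, were mostly lower in mesothelial cells of BLM-treated rats (27.0, 63.1 and 127 CPM) than in those of control rats (120, 502 and 389 CPM). The groups overlapped, with BLM-treated replicate 3 above control replicate 1. The fibroblast list summed to 21060, 7905 and 17980 CPM in BLM-treated rats and 33460, 22500 and 41570 CPM in control rats, with 1 of its 11 markers at 0. The interstitial macrophage list summed to 657, 1474 and 1165 CPM in BLM-treated rats and 371, 370 and 137 CPM in control rats, and its part in the result was not tested; that class itself had C3 at 6.30, 15.5 and 34.1 CPM in BLM-treated rats.

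In AT2 and club cells the difference in C3 missed the threshold, although the groups did not overlap in either. AT2 cells had 382 and 236 CPM in BLM-treated replicates 2 and 3, and 463, 644 and 519 CPM in control rats (-0.82 ± 0.25, adjusted p = 0.15). Neither of the 2 members tested in AT2 cells was called, beside 1.21% of 6433 genes. Club cells had 896, 962 and 790 CPM in BLM-treated rats and 403, 206 and 773 CPM in control rats (0.54 ± 0.40, adjusted p = 0.71). The BLM effect on C3 was larger in mesothelial than in AT2 cells by 6.03 ± 0.61 (adjusted p = 1.3e-07, 0.34% of genes differing) and smaller in alveolar macrophages than in mesothelial cells by 4.09 ± 1.0 (adjusted p = 0.020, 2.00% of genes), the smaller of which was lost without any single control rat (adjusted p from 0.069 to 0.14). Monocytes, which also carried C3, had 115, 207 and 201 CPM in BLM-treated rats and 205, 229 and 206 CPM in control rats. Fibroblasts had 127, 278 and 91.6 CPM in BLM-treated rats and 0 and 83.1 CPM in control replicates 2 and 3 (2.01 ± 0.90, adjusted p = 0.33).

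**Figure D4:**
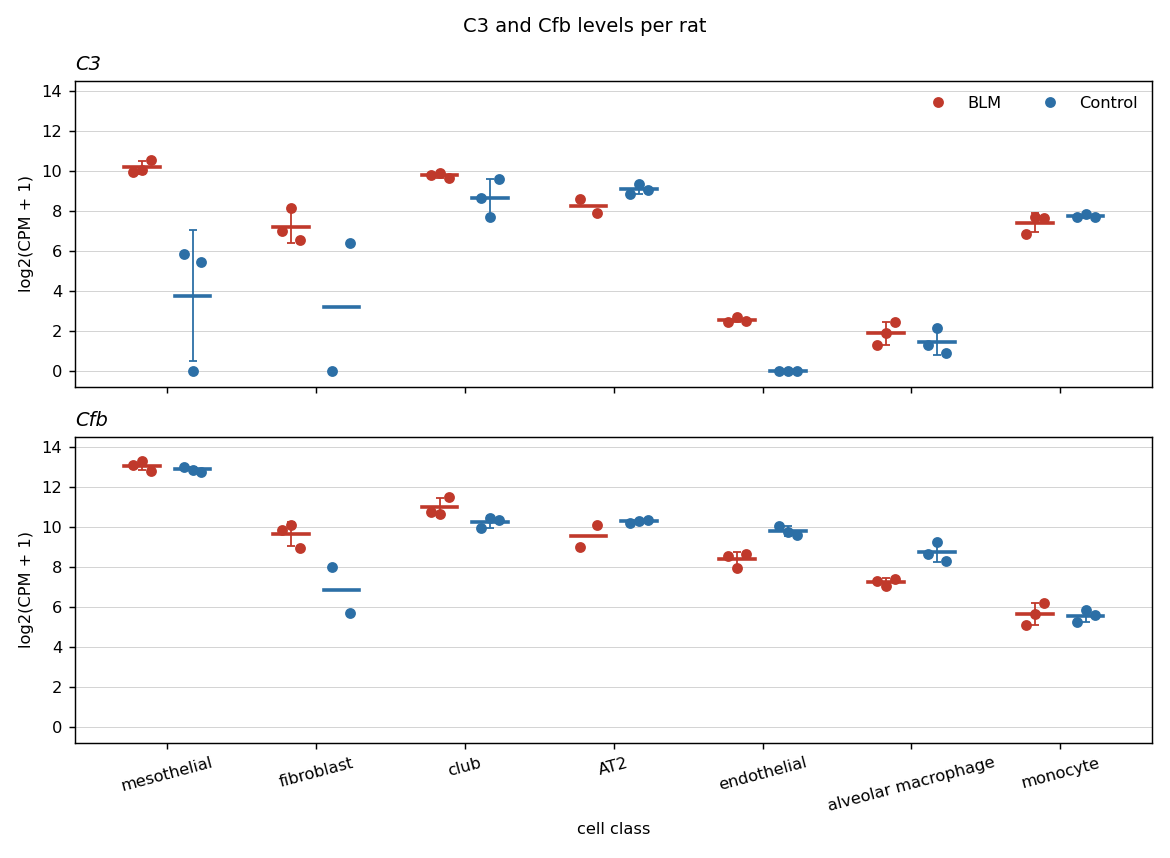
C3 (top) and Cfb (bottom) per rat in 7 classes, as log2 of CPM + 1, BLM-treated left of control, with bars at the mean and SD where 3 rats have a value. C3 separates the groups in mesothelial cells (995 to 1477 CPM in BLM-treated and 0 to 57.1 CPM in control rats), and Cfb in alveolar macrophages and endothelial cells. The groups also do not overlap for either gene in fibroblasts, club cells and AT2 cells, where not all differences passed the test. C3 in endothelial cells, without overlap as well, is near the floor of counting.

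Cfb, the alternative pathway protease, had opposite effects in different classes. In alveolar macrophages it was at 156, 129 and 168 CPM in BLM-treated rats, against 402, 602 and 314 CPM in control rats, lower by a log2 difference of -1.55 ± 0.20 (adjusted p = 0.0010). All control rats lay above all BLM-treated rats. The class held different clusters in the groups, and within each of its clusters, tested after the data were seen, Cfb was also lower, by -1.28, -1.44 and -1.19 (adjusted p = 0.0017, 3.9e-06 and 0.0094), where 3.58%, 5.46% and 8.28% of genes were called. Thinned to 500 UMIs, 7.31% ± 0.88 of alveolar macrophages of BLM-treated rats and 18.8% ± 5.2 of those of control rats had a Cfb UMI, at median depths of 4196 and 2974, beside 1.22% and 0.80% of B cells at 597 and 575. Other markers moved with Cfb in this class. The 8 AT2 markers summed to 158, 189 and 151 CPM in BLM-treated rats and 323, 808 and 279 CPM in control rats. The 6 B cell markers summed to 71.1, 48.2 and 61.4 CPM in BLM-treated rats and 781, 328 and 449 CPM in control rats, with none at 0 in either list. Of the B cell list, Fcrla is among the leading genes of the alveolar macrophage cluster led by Pla2g2d, so that sum is not particular to B cells. That cluster held 61, 137 and 178 cells in BLM-treated rats and 853, 316 and 1352 in control rats. The part of either list in the result was not tested.

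Endothelial cells also had less Cfb, at 375, 244 and 396 CPM in BLM-treated rats against 1062, 851 and 760 CPM in control rats (-1.21 ± 0.23, adjusted p = 0.0030), where 6.87% of 6213 genes were called (2.77% lower). In these cells the 8 AT2 markers summed to 36, 82 and 51 CPM in BLM-treated rats and 493, 470 and 518 CPM in control rats, and the 10 alveolar macrophage markers to 1163, 1368 and 1032 CPM in BLM-treated rats and 455, 382 and 879 CPM in control rats, the AT2 list with none and the other with 1 marker at 0. The alveolar macrophage list includes Lpl, which the paper reports as high in an endothelial subpopulation. By the paper, that subpopulation was larger in BLM-treated lungs, so the sum is not particular to macrophages. AT2 cells and alveolar macrophages both carry Cfb, and the part of either in the result was not tested.

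In proliferating cells, where 6.59% of 4872 genes were called (4.17% higher and 2.42% lower), Cfb was lower by -1.92 ± 0.31 (adjusted p = 0.00038), and C1qa and C1qc were higher by 2.64 ± 0.65 and 2.74 ± 0.57 (adjusted p = 0.015 and 0.0041). C1qa was at 153.5, 652 and 59.4 CPM there in BLM-treated rats and 35, 157 and 18.2 CPM in control rats. C1qc was at 210, 754 and 95.1 CPM in BLM-treated and 72.6, 124 and 19.4 CPM in control rats. For both genes the groups overlapped, and BLM-treated replicate 2 stood far above the others. The class was named by markers of dividing cells, and the part of its mix of cell types was not tested. Fits with a rat left out were not run in this class. Cfb in fibroblasts went the other way (2.88 ± 0.57, adjusted p = 0.036). It was at 913, 1100 and 498 CPM in BLM-treated rats against 251 and 49.8 CPM in control replicates 2 and 3.

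Mesothelial cells had the highest mean Cfb (8117 ± 1153 CPM), above club cells (1654 ± 666 CPM) in all 6 rats (exact sign-change p = 0.03125, the smallest that 6 rats allow, adjusted p = 0.14 over 27 comparisons). The level there was 8868, 9979 and 7212 CPM in BLM-treated and 8244, 7420 and 6978 CPM in control rats (0.18 ± 0.27, adjusted p = 0.82). Nearly every mesothelial cell carried it, with a UMI in 59 of 59, 183 of 187 and 422 of 426 cells of BLM-treated rats and in 52 of 52, 25 of 28 and 34 of 34 of control rats. AT2 cells had 502 and 1100 CPM in BLM-treated replicates 2 and 3 and 1154, 1248 and 1315 CPM in control rats (-0.64 ± 0.25, adjusted p = 0.30), a difference that passed without BLM-treated replicate 3 (-1.34, adjusted p = 0.0087), a fit with 1 BLM-treated rat that is assumed to vary like the control rats.

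The BLM effect on Cfb was smaller in alveolar macrophages than in fibroblasts by 4.66 ± 0.56 (adjusted p = 9.2e-07, 1.59% of genes differing), than in mesothelial cells by 1.81 ± 0.37 (adjusted p = 0.0036) and than in interstitial macrophages by 2.26 ± 0.68 (adjusted p = 0.022). It was larger in fibroblasts than in mesothelial cells by 2.85 ± 0.58 (adjusted p = 0.012) and than in AT2 cells by 3.85 ± 0.61 (adjusted p = 0.0012, 0.586% of genes differing). Over the 10 pairs of main classes 8 members were tested, and 11 differences were called in all, beside 2.61% of the tests of all genes. No member was called between alveolar macrophages and AT2 cells (1.76% of genes), or between interstitial macrophages and fibroblasts (0.822%), mesothelial cells (2.35%) or AT2 cells (3.69%). For Cfb, the call against interstitial macrophages was lost without any single control rat (adjusted p from 0.057 to 0.17), that between fibroblasts and mesothelial cells without control replicate 1 or 3 (adjusted p = 0.064 and 0.49) and that between fibroblasts and AT2 cells without control replicate 3 (adjusted p = 0.080).

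**Figure D5:**
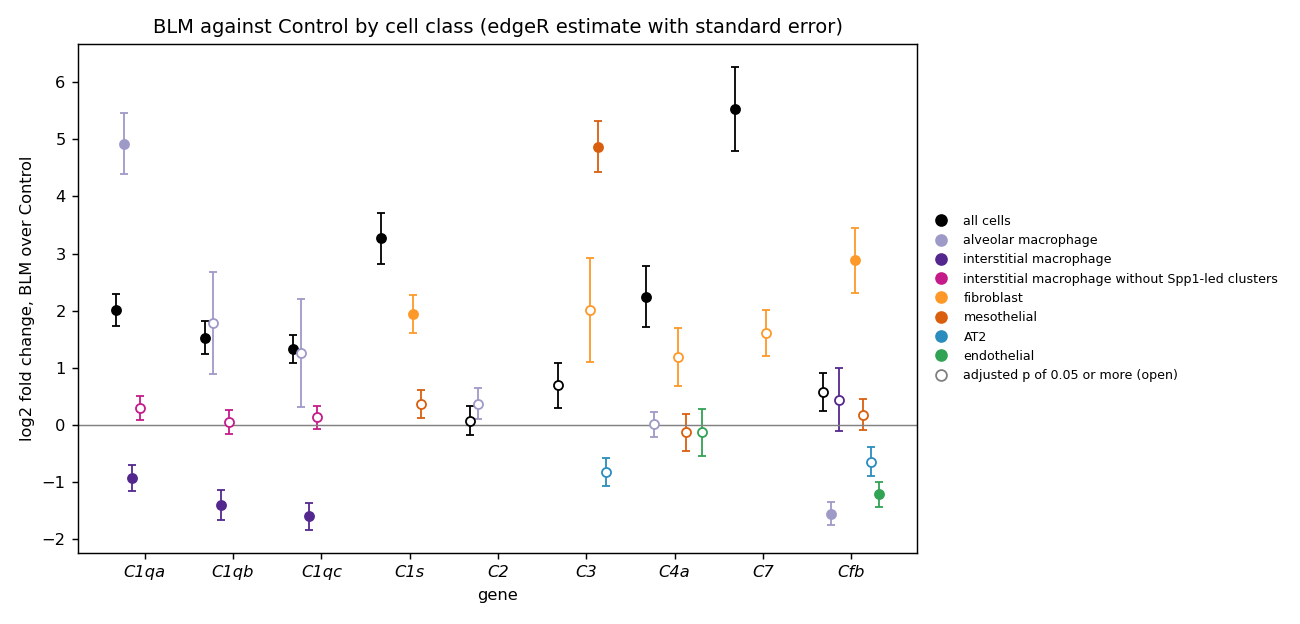
Log2 difference of each member, BLM-treated over control (edgeR estimate, bars are SE), in all cells and 7 classes or parts of classes; filled points passed an adjusted p of 0.05. C3 in mesothelial cells stands at 4.87, while Cfb is lower in alveolar macrophages (-1.55) and endothelial cells (-1.21) and higher in fibroblasts (2.88).

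C7, which joins the membrane attack complex after C5b and C6, was counted almost wholly in fibroblasts (588 ± 320 CPM over 5 rats). It was at 649, 1065 and 601 CPM in BLM-treated rats and 427 and 199 CPM in control replicates 2 and 3 (1.61 ± 0.40, adjusted p = 0.087), and so did not pass within the class, but did without BLM-treated replicate 3 (adjusted p = 0.022). A C7 UMI was found in 102 of 162, 527 of 709 and 114 of 194 fibroblasts of BLM-treated rats and in 7 of 15 and 7 of 29 of control replicates 2 and 3. Thinned to 500 UMIs the shares were 25.1% ± 6.7 and 13.8% ± 0.67, beside 0.056% and 0% of B cells, at median depths of 3524 and 2048 in fibroblasts and 597 and 575 in B cells.

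Beyond the members, 34 other genes of the complement list could be tested over all cells, and 10 were higher and 5 lower in BLM-treated rats, with a median log2 difference of 0.15, beside 17.4% of all genes called and 11.1% higher. Serping1, the inhibitor of C1r and C1s, was at 402, 714 and 852 CPM in BLM-treated rats against 26.0, 57.3 and 30.5 CPM in control rats (4.10 ± 0.37, adjusted p = 0.0012). C1r, the protease that activates C1s, was higher by 2.80 ± 0.35, and C6 and C9 of the terminal pathway by 3.64 ± 0.41 and 2.78 ± 0.69. The others higher were C4b, Cfi, Clu, Cd93, Colec12 and Cfd. Lower were properdin (Cfp, -0.83 ± 0.18), the ficolins Fcna and Fcnb, C4bpa and Cpn1.

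Serping1 also moved within classes. In mesothelial cells it was at 2904, 3412 and 3643 CPM in BLM-treated rats against 857, 1003 and 1492 CPM in control rats (1.55 ± 0.28, adjusted p = 0.017), the one call among 12 list genes tested there. In fibroblasts it was higher by 1.41 ± 0.28 (adjusted p = 0.038), the one call among 15. None of 11 list genes was called in AT2 cells. Of all genes tested, 2.20% were called in mesothelial cells, 1.22% in fibroblasts and 1.21% in AT2 cells.

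Interstitial macrophages had 7 list genes higher and 3 lower of 22 tested, beside 17.1% of 5790 genes called. Among those lower were the receptors for the fragments C3a and C5a, C3ar1 (-1.63 ± 0.46, adjusted p = 0.018) and C5ar1 (-0.89 ± 0.23, adjusted p = 0.011). C3ar1 was at 11.5, 18.0 and 23.6 CPM in BLM-treated rats and 48.7, 68.5 and 68.3 CPM in control rats. Higher were C1r, C1qbp, Itgb2, Vsig4, Cd59, Serping1 and C6. In neutrophils, where 17.6% of 3280 genes were called, Vsig4 was also higher (3.29 ± 0.72, adjusted p = 0.0093). Without the Spp1-led clusters 1 of 15 list genes was called, C6, beside 1.06% of 2552 genes. C5ar1 differed there by -1.02 ± 0.24 (adjusted p = 0.051). Alveolar macrophages had 5 list genes higher (Cfd, C1r, Colec12, C1qbp and C6) and 1 lower, Lrp1 (-1.17 ± 0.14, adjusted p = 0.00054), of 22. Of all 9265 genes tested in that class, 11.2% were called.

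Outside the complement list, the genes most like each member over 17 classes were named by the Pearson correlation of log2 mean levels, as a description in which classes share their libraries. For C1qa, C1qb and C1qc it was Cd163, a scavenger receptor of macrophages (r = 0.947, 0.957 and 0.957), with Folr2 next for each. C1s was most like Pcolce, which encodes an enhancer of procollagen processing (r = 0.955), and then Col1a1. C7 was most like Lrrn3 (r = 0.974) and Scara5 (r = 0.973), C4a like LOC103689965 (r = 0.959), C3 like Mpzl2 (r = 0.906), C2 like Dock4 (r = 0.896) and Cfb like Dolk (r = 0.843). Among the members, the C1q chains had r of 0.954 to 0.965 with each other, and C1s and C4a r = 0.851.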

How the data were processed

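The deposited values are counts: the authors gave whole UMI counts, not normalized, per gene and kept cell of 6 rat lungs. Aligner, counting program and cell filter: not given in the sources used here. As genome build, the processing notes of the submitters list mm9, a mouse assembly. Values lie 1 field to the right of the gene name. Cell names end in N or F with a number, letters that the labels do not explain, and they were matched to control and BLM-treated rats by the study's totals of cells per group. The 9 members, the complement list of 54 genes (47 measured) and the markers were chosen with earlier results of these data known.

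Counts were scaled to 10000 per cell, and 2000 variable genes without the complement list gave 30 principal components, 15 neighbours and Leiden clusters at resolution 1 (scanpy 1.11.5). Clusters were named if at least 3 markers were higher (mean log2 fold of at least 1), against the median cluster. The doublet caller marked 99 cells (0.388%) and was taken not to have worked. UMIs were summed per rat and class of at least 10 cells and tested with edgeR 4.0.16 (filterByExpr, TMM, quasi-likelihood test, Benjamini-Hochberg adjustment over all genes, threshold 0.05). The difference of the effect between classes was an interaction term with the rat as a block, and class levels were compared with exact sign changes. Shares of cells were thinned to 500 UMIs, leaving out shallower cells. The test was checked on simulated data with known changes. Of log2 changes of 2 and of 1 it found 90.5% and 36.1% over all cells and 96.9% and 69.1% in alveolar macrophages. In mesothelial cells it found 100% and 34.8%, and in fibroblasts 38.9% and 2.22%. Of unchanged genes it called from 0.0430% to 0.435%. A gene that was not called, in fibroblasts above all, may therefore still differ. As alternatives, a replicate block, leaving out each rat, RLE scaling, DESeq2 1.42.0, no filter on low counts, removal of called doublets, cells of at least 500 UMIs, a mean over cells, resolutions 0.5 and 2, clustering that kept the complement genes, and shares thinned to 300 or 1000 UMIs were tried; fits on single clusters and without Spp1-led clusters were chosen after seeing the data. Floors of 3 UMIs cover counting error only. Replicates are separate rats. The labels give no batch. All 9 members were named, with every complement gene that passed over all cells or in a main class, apart from 1 not reported here, and the 3 genes most like each member at 20 CPM or more.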

Additional observations from a re-analysis of the deposited data

Results flagged for a closer look

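Differences between classes in the BLM effect are listed where the interaction itself passed (edgeR quasi-likelihood test with Benjamini-Hochberg adjustment, 3 BLM-treated and 3 control rats, log2 scale). Between alveolar and interstitial macrophages they were 5.35 for C1qa, 2.86 for C1qb, 2.68 for C1qc and -2.26 for Cfb. For Cfb the effect in alveolar macrophages differed by -4.66 from that in fibroblasts and by -1.81 from that in mesothelial cells, and that in fibroblasts by 2.85 from mesothelial cells and 3.85 from AT2 cells. For C3 the difference was -4.09 between alveolar macrophages and mesothelial cells and 6.03 between mesothelial and AT2 cells. For C1s it was 1.78 between fibroblasts and mesothelial cells.

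An unnamed cluster with 317 cells, led by Col3a1, Eln and Gpx3 and left out of the classes compared, is listed because C1s and C4a were called in it. It held 17, 102 and 43 cells of BLM-treated rats and 37, 52 and 66 of control rats, and 6.8% of its 1132 genes tested were called. C4a was at 1540, 823 and 1402 CPM in BLM-treated rats and 0, 96.4 and 57.7 CPM in control rats, a log2 difference of 4.40 ± 0.44 (adjusted p = 1.0e-06), higher in 3 of 3 BLM-treated rats. C1s was at 895, 715 and 1345 CPM in BLM-treated rats and 217, 418 and 358 CPM in control rats, a difference of 1.58 ± 0.31 (adjusted p = 0.0026), also without overlap.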

How the results depend on the processing

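Of 595 values of single genes under the alternatives, 518 kept direction and side of the threshold, 40 lost the call, 15 gained one and 22 changed sign; the causes were not tested. The call of C3 in mesothelial cells held under each. Members called in alveolar macrophages (2) were 1 at resolution 2, with complement genes kept in the clustering or in the cluster led by Pla2g2d alone, and 2 to 4 with a rat left out; under the first pair of settings C1qa, C1qb and C1qc fell under the filter. In fibroblasts (2) they were 5 without a filter or at resolution 0.5, 0 in the shared cluster, and 0 to 3 with a rat left out; in AT2 cells (0) 2 without a filter and 0 to 1 with a rat left out (the 1 from a fit with 1 BLM-treated rat); in interstitial macrophages (3) 0 without the Spp1-led clusters. The fits on single clusters were chosen after seeing the data. Calls of the class differences (11) were 19 without a filter and 5 to 14 with a rat left out. Signs changed for C4a in alveolar macrophages (-0.0010 with DESeq2, -0.10 for cells of at least 500 UMIs, -0.0011 at resolution 0.5, -0.17 with complement genes kept; -0.16 to 0.13 with a rat left out), endothelial cells (0.024 without a filter; -0.61 to 0.55 with a rat left out), mesothelial cells (-0.32 to 0.085) and smooth muscle cells (-0.23 to 0.43), for C2 over all cells (-0.033 to 0.24), in the shared fibroblast cluster for C3 (-0.082) and C4a (-0.52), and without Spp1-led clusters for C1qa (0.30), C1qb (0.055) and C1qc (0.14). In percentage points, the difference in the share of C2 UMIs in alveolar macrophages was -36.7 at resolution 2 and -27.5 with complement genes kept, that of mesothelial cells with C3 45.7 at 1000 UMIs, that of alveolar macrophages with Cfb -19.1 at 1000 UMIs, and that of interstitial macrophages with C1qa -13.3 at 300 and -41.5 at 1000 UMIs. Same-numbered rats correlated at 0.10, -0.06 and -0.13, so the numbers do not pair them; with a replicate block 5 members were called over all cells, and C4a was not (adjusted p = 0.075).

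Of all genes in fibroblasts 92 were called, against 207 with DESeq2, 423 without a filter, 203 with the replicate block, 407 at resolution 0.5 and 0 to 260 with a rat left out (0 without control replicate 2 or 3, with 1 control rat in the fit). In mesothelial cells there were 81, against 307 without a filter and 5 to 96 with a rat left out (5 without control replicate 3), and in AT2 cells 78, against 201 without a filter and 51 at resolution 2. Leaving out a rat lowered the counts to as few as 1181 of 2324 over all cells, 517 of 1040 in alveolar macrophages and 462 of 990 in interstitial macrophages. With 3 to 29 fibroblasts and 11 to 25 club cells per control rat, cell number limits those classes.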

Other observations

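Cfb in plasmacytoid dendritic cells came almost wholly from 1 cell. BLM-treated replicate 3 had 93 UMIs in 27 such cells, 91 of them in a single cell, and the other rats had 0. Vsig4, the complement receptor of tissue macrophages that binds C3b, split the rats within each group in alveolar macrophages. There it was at 508, 564 and 27.9 CPM in BLM-treated rats and 45.2, 669 and 29.3 CPM in control rats, so that BLM-treated replicates 1 and 2 and control replicate 2 stood far above the others. Over all cells it was at 247, 236 and 18.7 CPM in BLM-treated and 29.0, 289 and 22.3 CPM in control rats. In neutrophils it was at 334, 366 and 51.6 CPM in BLM-treated rats and 8.45, 64.5 and 9.68 CPM in control rats, and in interstitial macrophages at 432, 287 and 82.7 CPM in BLM-treated rats and 62.6, 34.2 and 0 CPM in control rats. In both it was higher after BLM, by 3.29 ± 0.72 and 3.12 ± 0.67 on the log2 scale (adjusted p = 0.0093 and 0.0028, edgeR quasi-likelihood test with Benjamini-Hochberg adjustment), although BLM-treated replicate 3 was the lowest of its group. The split in alveolar macrophages was seen after the values were known, and its cause was not tested.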
